A study of Arabidopsis thaliana with 12 samples.

Results

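The zone by genotype interaction in roots of Arabidopsis thaliana compares how transcript signals differ between 2 root zones in the mutant upb1-1 with how they differ between the same zones in wild-type Col-0. It uses 8 of the 12 Affymetrix ATH1 arrays of the series, chosen by genotype, and all 22746 probe sets that are not controls. The arrays hold 2 biological replicates each of the upb1-1 elongation zone, the upb1-1 meristematic zone, the Col-0 elongation zone and the Col-0 meristematic zone. All seedlings are labelled as ecotype Columbia-0, were 6 days old and grew on the same standard medium without further treatment. The upb1-1 plants carry the mutant allele of UPB1, no other allele or construct is labelled, and no second mutant allele was analysed here. The zones were separated by hand with a blade, with about 60 roots pooled in each replicate, so each array averages all cell types of a cut piece. The other 4 arrays, from the line 35S::UPB1-3YFP #2 in upb1-1, entered the fit only through the shared estimate of the spread.

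UPBEAT1 (UPB1) is a basic helix-loop-helix transcription factor that represses peroxidase genes and thereby acts on the balance of reactive oxygen species at the border between dividing and expanding root cells. Cells of the root tip divide in the meristem, then stop dividing and lengthen in the elongation zone, and form root hairs and other specialised features as they differentiate. Class III peroxidases are secreted haem enzymes that use or make reactive oxygen species in the cell wall, where they can stiffen or loosen it. NADPH oxidases of the plasma membrane make superoxide outside the cell. Expansins, xyloglucan-modifying enzymes and pectin methylesterases remodel the wall during growth.

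For each probe set the zone difference is the elongation minus the meristematic log2 signal, and the interaction is the zone difference in upb1-1 minus that in Col-0. A positive interaction means that the elongation zone stood higher against the meristematic zone in upb1-1 than it did in Col-0. Signals are linear MAS5 intensities, and log2 differences were computed from log2(signal + 16), which understates changes of dim probe sets. A probe set was tested if it was bright enough on at least 2 arrays, and called at an adjusted p below 0.05 in limma's moderated test. A probe set that is bright in 1 group alone can pass that filter, so counts of list members below are over the tested members only.

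UPB1 (AT2G47270) had signals of 11.9 and 15.6 in upb1-1 elongation arrays and 8.53 and 16.8 in upb1-1 meristematic arrays, against 1379 and 1233 in Col-0 elongation arrays and 667 and 528 in Col-0 meristematic arrays. Every upb1-1 array lay below every Col-0 array. The upb1-1 minus Col-0 difference was -5.47 in the elongation zone and -4.43 in the meristematic zone, and both passed the test. The zone difference of UPB1 was 0.07 in upb1-1, which was not called, and 1.11 in Col-0, which was called higher. The interaction of -1.05 (SE 0.37) did not pass the test (adjusted p = 0.135). The upb1-1 signals lay near or below the added 16, so a zone difference in upb1-1 could hardly be read. The interaction was -0.96 with 1 added, not called, and -1.03 with 64 added, where limma called it (adjusted p = 0.0259).

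The median signal ranged from 50.8 to 67.6 over the 8 arrays, and the maximum from 12453 to 16433. Replicates correlated with Pearson's r between 0.966 and 0.989 across probe sets, which are not independent replicates. Replicates were farthest apart in the upb1-1 elongation zone, with an SD of 0.36 on the log2 scale against 0.20 in the upb1-1 meristematic zone, and in Col-0 the SD was 0.30 in the elongation zone and 0.22 in the meristematic zone. The 3' to 5' signal ratio of control transcripts, a sign of RNA length, was also higher in the elongation zone, by 2.00 log2 units in upb1-1 and 1.71 in Col-0, which leaves an interaction of 0.28 in the controls themselves. The part of this ratio in the results was not tested. Markers of dividing cells were dimmer in the pieces labelled as elongation zone. The 5 tested genes of the G2/M phase summed to signals of 386 and 281 in upb1-1 elongation arrays and 1148 and 1148 in upb1-1 meristematic arrays, against 704 and 491 in Col-0 elongation arrays and 1321 and 1180.3 in Col-0 meristematic arrays. The precision of every value is limited by having 2 arrays in each group. The p-values rest on 1 spread for each probe set, pooled between replicates over the 6 groups of all 12 arrays and moderated across probe sets. They do not measure the spread of each group by itself.

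The zones differed at many more probe sets than the interaction did. Between the zones, 8329 probe sets (52.6%) were called in upb1-1 and 6382 (40.3%) in Col-0, of 15834 tested. They were higher in the elongation zone at 24.1% of tested probe sets and lower at 28.5% in upb1-1, and higher at 17.5% and lower at 22.8% in Col-0. The interaction was called at 359 probe sets (2.27%), of which 235 (1.48%) were higher and 124 (0.783%) were lower. At an unadjusted p below 0.05, 3042 probe sets (19.2%) passed. The median interaction over all tested probe sets was -0.02. Among the called probe sets, 132 had an interaction of at least 2 log2 units in size, 110 of them higher and 22 lower. All 359 had an interaction of 1 sign in each of the 16 ways of taking 1 array from each group, as had 5674 (35.8%) of all tested probe sets. The test itself favours probe sets whose arrays agree, so this count is no separate evidence.

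The probe sets with a higher interaction were mostly bright in the upb1-1 elongation zone and dim in the Col-0 elongation zone. Their median group mean signals were 332 in the upb1-1 elongation zone and 122 in the upb1-1 meristematic zone, against 67.9 in the Col-0 elongation zone and 139.8 in the Col-0 meristematic zone. The largest class, 109 of the 235, was called higher in the elongation zone of upb1-1 and not called between the zones of Col-0. Another 73 were higher in the elongation zone of upb1-1 and lower in that of Col-0, and 45 were not called in upb1-1 and lower in the elongation zone of Col-0. Of the remaining 8, 7 were higher in the elongation zone of both genotypes and 1 was lower in both.

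The probe sets with a lower interaction were mostly dimmer in the upb1-1 elongation zone than in the Col-0 elongation zone. Their median group mean signals were 156 in the upb1-1 elongation zone and 473 in the upb1-1 meristematic zone, against 583 in the Col-0 elongation zone and 405 in the Col-0 meristematic zone. The median zone difference of this set was -1.55 in upb1-1 and -0.11 in Col-0. In Col-0, 38 of them were called higher in the elongation zone and 38 lower, so the set is no mirror image of the higher set. Of the 124, 48 were lower in the elongation zone of upb1-1 and not called in Col-0, and 38 were lower in the elongation zone of both. A further 27 were not called in upb1-1 and higher in the elongation zone of Col-0, 8 were lower in upb1-1 and higher in Col-0, and 3 were higher in both. Called zone differences of opposite direction were found at 86 probe sets (0.543%) of all tested.

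**Figure D1:**
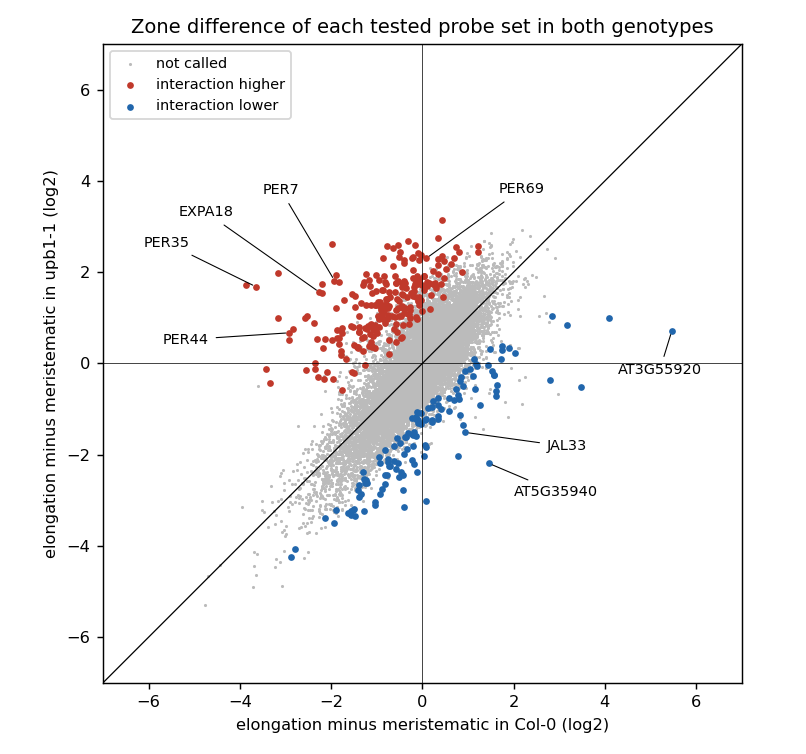
Each point is 1 tested probe set, with the Col-0 zone difference (elongation minus meristematic, log2) on the horizontal axis and the upb1-1 zone difference on the vertical axis; the diagonal marks an interaction of 0. The 235 probe sets with a higher interaction lie above the diagonal, many of them left of the vertical line at 0, and the 124 with a lower interaction lie below it.

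At 353 of the 359 called probe sets (98.3%) the genotypes lay farther apart in the elongation zone than in the meristematic zone, as they did at 12242 (77.3%) of all tested probe sets. The interaction equals the upb1-1 minus Col-0 difference in the elongation zone minus that in the meristematic zone, so the called probe sets can be read either way. The median difference between genotypes for the higher set was 1.83 in the elongation zone and -0.14 in the meristematic zone, and for the lower set it was -1.38 and 0.11. Between genotypes, 2979 probe sets (18.8%) were called in the elongation zone and 6 (0.0379%) in the meristematic zone, over all tested. Those in the elongation zone were higher in upb1-1 at 9.36% of tested probe sets and lower at 9.45%, and those in the meristematic zone were higher at 0.0126% and lower at 0.0253%. Of the 359 called interactions, 353 were also called between genotypes in the elongation zone in the same direction, and 5 in the meristematic zone. These counts use the same arrays as the interaction and are not independent of it.

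**Figure D2:**
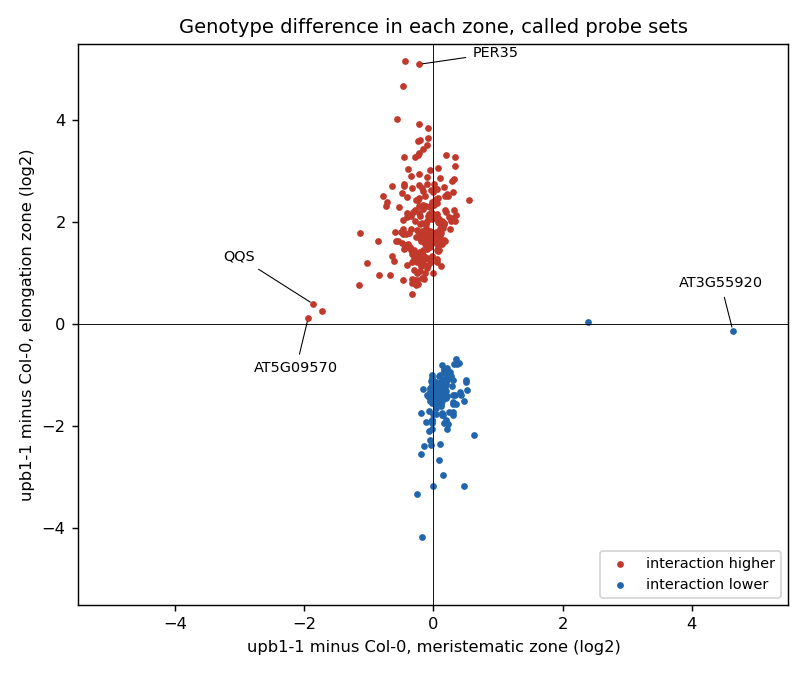
Each point is 1 of the 359 called probe sets, with the upb1-1 minus Col-0 difference in the meristematic zone on the horizontal axis and in the elongation zone on the vertical axis, both log2. Most points lie near 0 on the horizontal axis, and AT3G55920, QQS and AT5G09570 are named among the 6 whose meristematic part was the larger.

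Within each called set the 2 elongation replicates differed mostly in 1 direction, and in the same direction in both genotypes. Among the 235 probe sets with a higher interaction, replicate 2 lay above replicate 1 at 210 in the upb1-1 elongation zone and at 182 in the Col-0 elongation zone. Among the 124 with a lower interaction, replicate 2 lay below replicate 1 at 107 in upb1-1 and 105 in Col-0. Over all tested probe sets, replicate 2 lay above at 7288 in upb1-1 and 7508 in Col-0 and below at 8546 and 8326. The count of calls depended on single arrays. A fit without 1 array leaves its group with a lone array that is assumed to vary like the other groups, and this holds for each such count and p given here. The count was 2403 without upb1-1 elongation replicate 1 and 168 without replicate 2, and 69 and 95 without upb1-1 meristematic replicate 1 and 2. It was 86 and 745 without Col-0 elongation replicate 1 and 2, and 59 and 137 without Col-0 meristematic replicate 1 and 2. All 359 probe sets were again called without upb1-1 elongation replicate 1, and 141 of them without replicate 2.

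Class III peroxidases included the named gene with the highest interaction. Of 55 peroxidase genes with a probe set, 33 were tested, and 6 of these were called higher and 0 lower, beside 1.48% higher and 0.783% lower over all tested probe sets. The interaction was above 0 at 23 of the 33, with a median of 0.27 and a range of -0.72 to 5.33. Without upb1-1 elongation replicate 1, 10 were called higher and 2 lower, where 6.64% of all tested probe sets were called higher and 8.53% lower. This list was chosen with the study's interest in peroxidases known and holds the 3 peroxidases named with UPB1, so it is not independent evidence of a direction. In pieces of root, more cells of a type and more RNA per cell cannot be told apart.

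PER35 (AT3G49960) had signals of 548 and 903 in upb1-1 elongation arrays and 201 and 217 in upb1-1 meristematic arrays. In Col-0 it had 2.08 and 8.36 in elongation arrays and 295 and 206 in meristematic arrays. The 2 Col-0 elongation arrays stood far below the other 6, and the meristematic arrays of both genotypes overlapped. The zone difference was 1.68 in upb1-1 and -3.65 in Col-0, both called, and the interaction was 5.33 (SE 0.38, adjusted p = 3.57e-06). The Col-0 elongation signals lay below the added 16, so the size depends on that constant. It was 7.28 with 1 added and 3.67 with 64 added, and was called with both.

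PER7 (AT1G30870) had signals of 3127 and 5553 in upb1-1 elongation arrays and 1089 and 1262 in upb1-1 meristematic arrays, against 210.3 and 471 in Col-0 elongation arrays and 1258 and 1235 in Col-0 meristematic arrays. PER44 (AT4G26010) had 779 and 1004 in upb1-1 elongation arrays and 468 and 645 in upb1-1 meristematic arrays, against 51.0 and 98.4 in Col-0 elongation arrays and 666 and 627 in Col-0 meristematic arrays. In both genes the elongation arrays of the 2 genotypes lay apart with upb1-1 above, while the meristematic arrays overlapped. Both were called higher in the elongation zone of upb1-1 and lower in that of Col-0. The interaction was 3.74 for PER7 (SE 0.43, adjusted p = 0.000322) and 3.59 for PER44 (SE 0.37, adjusted p = 0.000162).

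PER69 (AT5G64100) had meristematic levels that did not overlap between genotypes. Its signals were 4330.1 and 3999 in upb1-1 elongation arrays and 883 and 779 in upb1-1 meristematic arrays, against 1508 and 2168 in Col-0 elongation arrays and 1957 and 1478 in Col-0 meristematic arrays. The upb1-1 arrays lay above the Col-0 arrays in the elongation zone and below them in the meristematic zone, without overlap in either. The zone difference was 2.30 in upb1-1 and 0.09 in Col-0, where it was not called. The interaction was 2.22 (SE 0.32, adjusted p = 0.00255), and the genotype difference in the meristematic zone alone, -1.02, was not called.

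PER66 (AT5G51890) and PER72 (AT5G66390) were the other called peroxidases, and they are named because the count holds them and not by rank. PER66 had signals of 229 and 307 in upb1-1 elongation arrays and 92.0 and 119 in upb1-1 meristematic arrays, against 84.6 and 77.2 in Col-0 elongation arrays and 99.8 and 121 in Col-0 meristematic arrays, with an interaction of 1.60 (adjusted p = 0.024). PER72 had 549 and 183 in upb1-1 elongation arrays and 190.5 and 252 in upb1-1 meristematic arrays, against 64.8 and 38.8 in Col-0 elongation arrays and 274 and 225 in Col-0 meristematic arrays, with an interaction of 2.50 (adjusted p = 0.0379). The PER66 elongation arrays of upb1-1 were the brightest of the 8, whereas replicate 2 of PER72 in the upb1-1 elongation zone lay below all 4 meristematic arrays. PER66 kept its call without upb1-1 elongation replicate 1 and without Col-0 elongation replicate 2, and lost it without any other single array, with adjusted p up to 0.148. PER72 kept its call without either upb1-1 elongation array and lost it without any other single array, with adjusted p up to 0.178. PER9 (AT1G44970) lay just outside the threshold, with an interaction of 1.93 and an adjusted p of 0.0522.

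**Figure D3:**
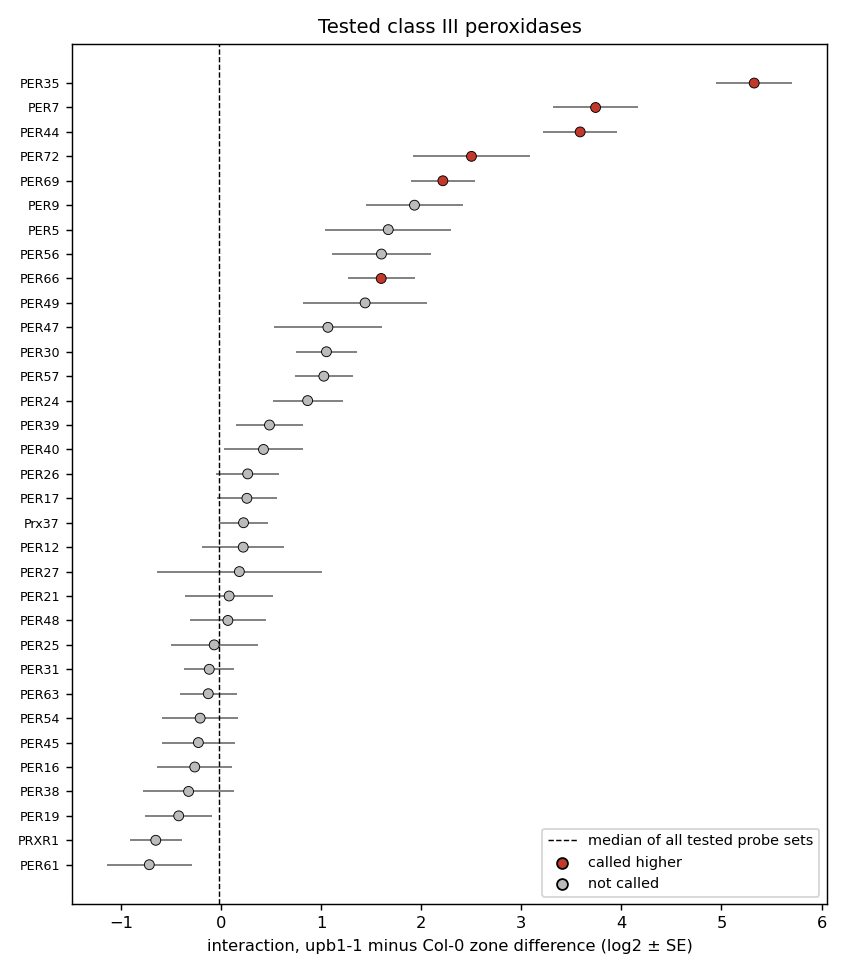
The interaction (log2, points) with its standard error (lines) for each of the 33 tested class III peroxidases, ordered by size; the dashed line is the median of all tested probe sets. The 6 called members lie between 1.60 and 5.33, and no member below 0 was called.

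The 3 peroxidases that the study is known to have linked to UPB1 were not called in the interaction. PER57 (AT5G17820) had signals of 5776 and 7546 in upb1-1 elongation arrays and 3247 and 3412 in upb1-1 meristematic arrays, against 2732 and 4159 in Col-0 elongation arrays and 3693 and 3269 in Col-0 meristematic arrays. Its upb1-1 elongation arrays were the brightest of the 8, and the other 3 groups overlapped one another. The zone difference was 0.98 in upb1-1, which was called, and -0.04 in Col-0, and the interaction of 1.03 (SE 0.29) had an adjusted p of 0.0786. Without upb1-1 elongation replicate 1 the interaction of PER57 was 1.22 (adjusted p = 0.013), and without Col-0 elongation replicate 2 it was 1.33 (adjusted p = 0.0219).

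PER39 (AT4G11290) had signals of 3428 and 4372 in upb1-1 elongation arrays and 1240.0 and 1543 in upb1-1 meristematic arrays, against 2169.7 and 2509 in Col-0 elongation arrays and 1225 and 1113 in Col-0 meristematic arrays. PER40 (AT4G16270) had 327 and 439 in upb1-1 elongation arrays and 103 and 116 in upb1-1 meristematic arrays, against 255 and 309.6 in Col-0 elongation arrays and 99.9 and 121 in Col-0 meristematic arrays. Both were higher in the elongation zone of each genotype, with zone differences of 1.47 in upb1-1 and 0.99 in Col-0 for PER39, and 1.66 and 1.23 for PER40. Their interactions were 0.48 (SE 0.34, adjusted p = 0.462) and 0.42 (SE 0.40, adjusted p = 0.604).

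NADPH oxidases had 3 tested genes, of which RBOHG (AT4G25090) was called higher, beside 1.48% of all tested probe sets. RBOHG had signals of 84.1 and 164 in upb1-1 elongation arrays and 33.4 and 45.4 in upb1-1 meristematic arrays, against 19.7 and 35.6 in Col-0 elongation arrays and 59.2 and 70.9 in Col-0 meristematic arrays. The upb1-1 arrays lay above the Col-0 arrays in the elongation zone and below them in the meristematic zone. The interaction was 2.20 (SE 0.45, adjusted p = 0.0207). The call held without upb1-1 elongation replicate 1 and without Col-0 elongation replicate 2, and was lost without any other single array (adjusted p up to 0.126). RBOHE (AT1G19230) had an interaction of 1.75 (adjusted p = 0.0515) and RBOHI (AT4G11230) of 1.05 (adjusted p = 0.306), and neither was called. The summed signal of the 3 was 196 and 408 in upb1-1 elongation arrays and 112 and 114 in upb1-1 meristematic arrays, against 83.2 and 90.3 in Col-0 elongation arrays and 168 and 170.4 in Col-0 meristematic arrays.

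Of 8 tested glutathione S-transferases, detoxifying enzymes, none was called, 3 passed an unadjusted p below 0.05 in limma, beside 19.2% of all tested probe sets, and 6 lay above 0 (median 0.41, against -0.02 over all tested probe sets). GSTU28 (AT1G53680) came nearest, with an interaction of 1.88 (adjusted p = 0.0608). The other antioxidant enzymes had 2 tested members and none called.

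Root hair genes were called higher at 3 of 6 tested genes, beside 1.48% of all tested probe sets, and 0 were called lower. The 3 are EXPA7 (AT1G12560) and EXPA18 (AT1G62980), expansins of growing root hairs, and GH9C1 (AT1G48930), an endoglucanase known from root hair cells. Most genes written in the root hair list, among them COBL9, RSL4 and LRX1, were not matched to a probe set with 1 gene. The 6 tested genes therefore do not stand for the whole list. EXPA18 had signals of 682 and 1240.4 in upb1-1 elongation arrays and 267 and 340.1 in upb1-1 meristematic arrays, against 36.9 and 94.4 in Col-0 elongation arrays and 373 and 327 in Col-0 meristematic arrays. GH9C1 had 784 and 1899.9 in upb1-1 elongation arrays and 273 and 342 in upb1-1 meristematic arrays, against 70.4 and 105 in Col-0 elongation arrays and 354 and 375 in Col-0 meristematic arrays. EXPA7 had 1059 and 2031 in upb1-1 elongation arrays and 479.9 and 506 in upb1-1 meristematic arrays, against 169 and 289 in Col-0 elongation arrays and 527 and 461 in Col-0 meristematic arrays. In all 3 genes the upb1-1 elongation arrays were the brightest of the 8 and the Col-0 elongation arrays the dimmest.

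All 3 were higher in the elongation zone of upb1-1 and lower in that of Col-0. The interaction was 3.84 for GH9C1 (SE 0.45, adjusted p = 0.000388), 3.82 for EXPA18 (SE 0.45, adjusted p = 0.000463) and 2.64 for EXPA7 (SE 0.49, adjusted p = 0.0123). EXPA7 lost its call without upb1-1 meristematic replicate 1 or 2, Col-0 elongation replicate 1 or Col-0 meristematic replicate 1, with adjusted p up to 0.085 and an interaction that stayed at or above 2.18. Over the 6 tested genes the interaction was above 0 at 4, with a median of 1.64 and a range of -0.29 to 3.84. The remaining members FER, DER1 and SCN1 were not called, and DER1 and SCN1 were not among those above 0. FER (AT3G51550), a receptor kinase active in many cell types besides root hairs, had an interaction of 0.64 (adjusted p = 0.348). The summed signal of the 6 genes was 6634 and 9916 in upb1-1 elongation arrays and 3665 and 3963 in upb1-1 meristematic arrays, against 4453 and 4406 in Col-0 elongation arrays and 3766 and 3847 in Col-0 meristematic arrays. None of EXPA7, EXPA18 and GH9C1 was near 0 in the pieces labelled as meristematic, where they had signals of at least 267.

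**Figure D4:**
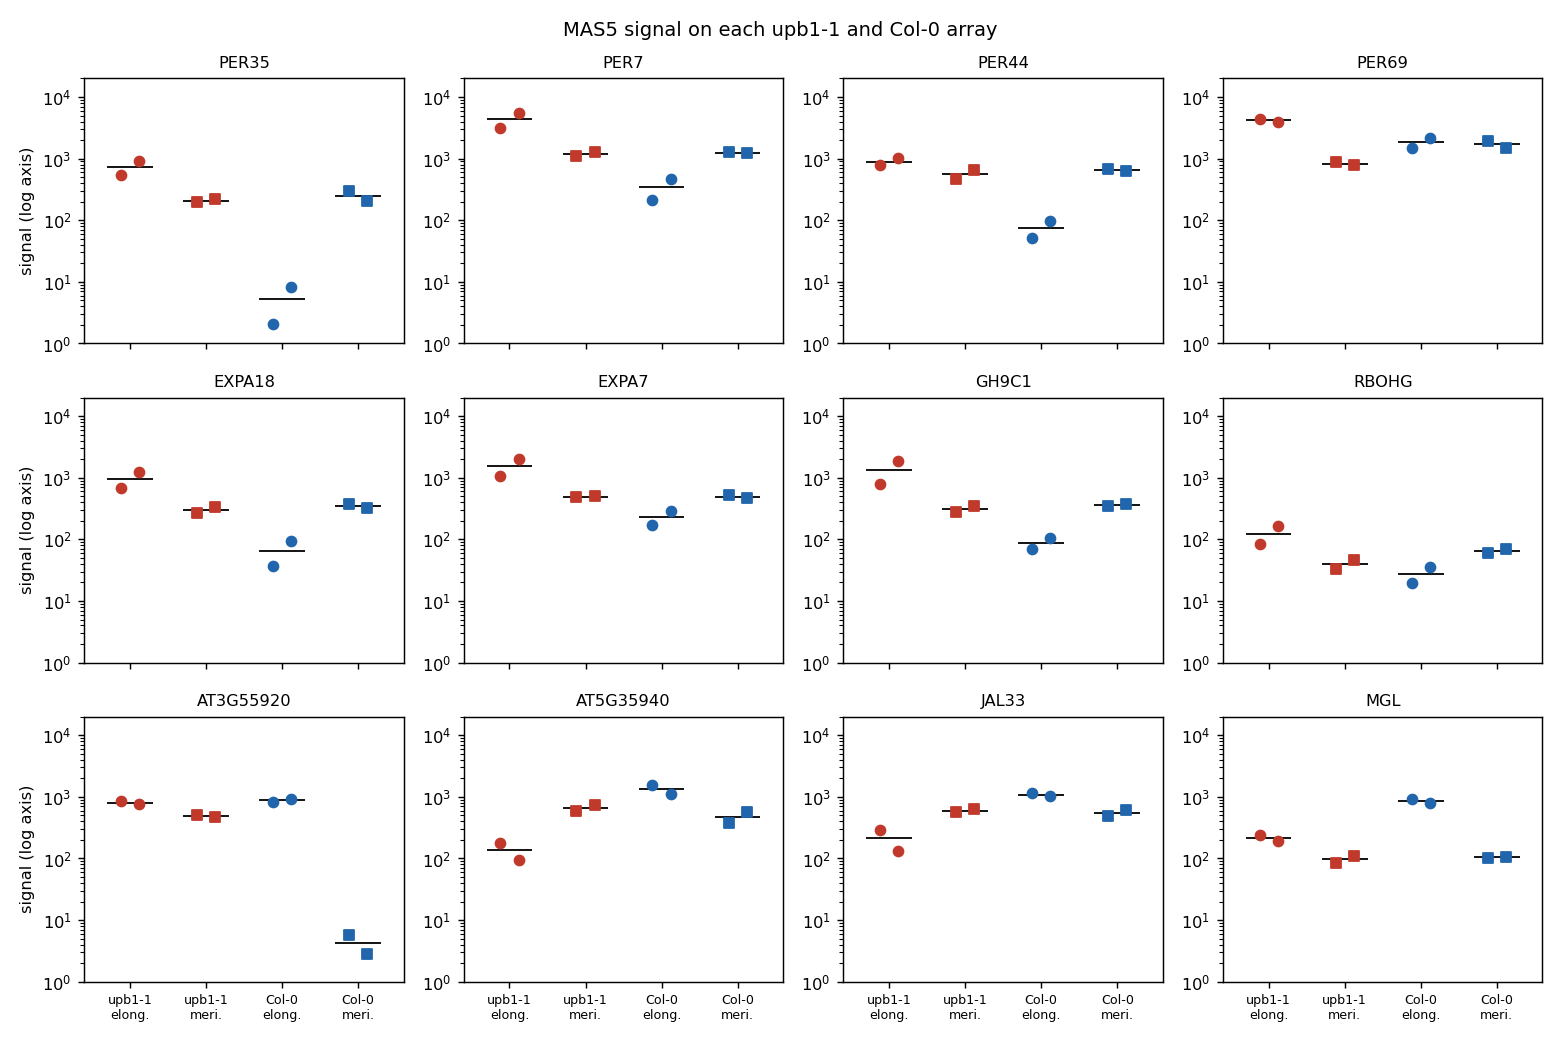
MAS5 signal on each of the 8 arrays (log axis) for 12 genes, with upb1-1 in red and Col-0 in blue, circles for the elongation zone and squares for the meristematic zone; black lines are group means of 2 arrays. PER35, PER7, PER44, EXPA18, EXPA7 and GH9C1 were brightest in the upb1-1 elongation zone and dimmest in the Col-0 elongation zone, and AT3G55920 was dim only in the Col-0 meristematic zone.

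Among genes of the cell wall, 3 of 14 tested expansins, 1 of 2 tested pectin methylesterases and 1 of 8 tested cellulose synthase and related genes were called higher, beside 1.48% of all tested probe sets. None of these lists had a member called lower, beside 0.783% of all tested. List members were matched by symbol or synonym, so family members known here by locus alone are not in these counts. The third expansin was EXLA1 (AT3G45970), an expansin-like gene, with signals of 172 and 161 in upb1-1 elongation arrays and 180.2 and 213 in upb1-1 meristematic arrays, against 86.6 and 63.5 in Col-0 elongation arrays and 208 and 273 in Col-0 meristematic arrays. It was lower in the elongation zone of Col-0 and not called between the zones of upb1-1, with an interaction of 1.28 (adjusted p = 0.0486). The pectin methylesterase was PMEPCRF (AT5G53370), with 156 and 193 in upb1-1 elongation arrays and 60.9 and 55.6 in upb1-1 meristematic arrays, against 29.0 and 44.2 in Col-0 elongation arrays and 110.0 and 67.9 in Col-0 meristematic arrays, and an interaction of 2.33 (adjusted p = 0.0257). CSLC12 (AT4G07960), of the family that makes the xyloglucan backbone, had 86.6 and 145 in upb1-1 elongation arrays and 57.2 and 22.6 in upb1-1 meristematic arrays, against 27.8 and 23.0 in Col-0 elongation arrays and 69.5 and 58.0 in Col-0 meristematic arrays, and an interaction of 2.22 (adjusted p = 0.0182). In all 3 the elongation arrays of upb1-1 lay above those of Col-0.

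These 3 calls depended on single arrays. EXLA1 kept its call only without upb1-1 elongation replicate 1, and its adjusted p reached 0.212 otherwise. PMEPCRF kept its call without upb1-1 elongation replicate 1 and without replicate 2 of either Col-0 zone (adjusted p otherwise up to 0.157). CSLC12 kept its call without upb1-1 elongation replicate 1, upb1-1 meristematic replicate 1 or Col-0 elongation replicate 2 (adjusted p otherwise up to 0.116). Without replicate 1 of either Col-0 zone or without either upb1-1 meristematic array, EXPA18 was the single expansin called. None of 6 tested xyloglucan endotransglucosylase/hydrolases was called, although 2 passed an unadjusted p below 0.05 in limma and 5 lay above 0 with a list median of 0.64, and 2 were called higher without upb1-1 elongation replicate 1, where 6.64% of all tested probe sets were. Over all tested probe sets 19.2% passed that unadjusted p. XTH18 (AT4G30280) had the smallest p, with an interaction of 1.27 (adjusted p = 0.0758).

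Of the other genes named by rank or list, UGT84A1 and AT3G13610 act on phenolic compounds. UGT84A1 (AT4G15480), a glucosyltransferase acting on hydroxycinnamic acids, had signals of 134 and 228 in upb1-1 elongation arrays and 15.5 and 16.6 in upb1-1 meristematic arrays, against 1.44 and 32.5 in Col-0 elongation arrays and 69.3 and 13.2 in Col-0 meristematic arrays. AT3G13610, whose listed synonym is F6'H1, an enzyme of coumarin synthesis induced by iron deficiency, had 75.5 and 153 in upb1-1 elongation arrays and 59.7 and 76.9 in upb1-1 meristematic arrays, against 30.7 and 11.02 in Col-0 elongation arrays and 119 and 103 in Col-0 meristematic arrays. Both Col-0 groups of UGT84A1 held replicates that differed many-fold at low signal. The interaction was 3.36 for UGT84A1 (SE 0.76, adjusted p = 0.0346) and 2.40 for AT3G13610 (SE 0.48, adjusted p = 0.0189). UGT84A1 kept its call without upb1-1 elongation replicate 1 and without replicate 2 of either Col-0 zone (adjusted p otherwise up to 0.19). AT3G13610 kept its call without upb1-1 elongation replicate 1 and without either Col-0 elongation array (adjusted p otherwise up to 0.124). The other 2 tested genes of the iron deficiency list were not called.

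A further set of genes with a known product is given here after their values were seen and outside the naming rule. UGT72E3 (AT5G26310), a glucosyltransferase of monolignols, had an interaction of 1.91 (adjusted p = 0.0309). TBL38 (AT1G29050) and TBL41 (AT3G14850), of a family of wall polysaccharide acetyltransferases, had interactions of 1.87 (adjusted p = 0.0465) and 1.79 (adjusted p = 0.0123). TBL38 had signals of 1263 and 2399 in upb1-1 elongation arrays and 419 and 488 in upb1-1 meristematic arrays, against 335 and 456 in Col-0 elongation arrays and 331 and 439 in Col-0 meristematic arrays, so 3 of the 4 groups overlapped and the upb1-1 elongation zone stood above them. TET12 (AT5G23030), a tetraspanin, had an interaction of 2.41 (adjusted p = 0.0223). The AP2-type transcription factor gene tny (AT5G25810) had 418 and 453 in upb1-1 elongation arrays and 233 and 267 in upb1-1 meristematic arrays, against 149.7 and 148 in Col-0 elongation arrays and 343 and 302 in Col-0 meristematic arrays. Its zone difference ran in opposite directions in the 2 genotypes, with an interaction of 1.80 (adjusted p = 0.00428) that kept its call without any single array. The serine carboxypeptidase-like gene scpl48 (AT3G45010) had an interaction of 1.55 (adjusted p = 0.00585), and lost its call without upb1-1 meristematic replicate 1 alone (adjusted p = 0.0531). UGT72E3, TBL38 and TET12 kept their calls only without upb1-1 elongation replicate 1 or Col-0 elongation replicate 2, with adjusted p otherwise up to 0.156, 0.208 and 0.112. TBL41 lost its call without upb1-1 meristematic replicate 2 or replicate 1 of either Col-0 zone (adjusted p up to 0.082).

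Other genes with the highest interactions are known here by locus alone. AT5G04960 had signals of 479.6 and 728 in upb1-1 elongation arrays and 147 and 189 in upb1-1 meristematic arrays, against 25.4 and 27.1 in Col-0 elongation arrays and 214 and 147 in Col-0 meristematic arrays, with an interaction of 3.93 (adjusted p = 0.000266). AT3G12540 had 159 and 259.6 in upb1-1 elongation arrays and 91.4 and 90.1 in upb1-1 meristematic arrays, against 3.65 and 9.88 in Col-0 elongation arrays and 116 and 111 in Col-0 meristematic arrays, with an interaction of 3.56 (adjusted p = 0.000223). AT1G19900 had 1224 and 2149.9 in upb1-1 elongation arrays and 404 and 494 in upb1-1 meristematic arrays, against 168 and 247 in Col-0 elongation arrays and 500.3 and 457 in Col-0 meristematic arrays, with an interaction of 2.99 (adjusted p = 0.000623). In these 3 the upb1-1 elongation arrays were the brightest and the Col-0 elongation arrays the dimmest, the same arrangement as in PER35 and EXPA18. AT3G54040, with an interaction of 3.06, had it too, and these 4 kept their calls without any single array. The Col-0 elongation signals of AT3G12540 lay below the added 16, and its interaction was 5.16 with 1 added and 2.12 with 64 added.

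AT2G45750 was the brightest of these genes, at 2725 and 5820.1 in upb1-1 elongation arrays and 619.9 and 682 in upb1-1 meristematic arrays, against 444 and 747 in Col-0 elongation arrays and 639 and 655 in Col-0 meristematic arrays. Its interaction was 2.75 (adjusted p = 0.0179), and the upb1-1 elongation arrays lay apart from the 6 others. The interaction was 3.13 for AT3G07070 (adjusted p = 0.00779), 3.00 for AT5G49870 (adjusted p = 0.0215) and 2.69 for AT3G22240 (adjusted p = 0.00568). AT2G45750 and AT5G49870 kept their calls only without upb1-1 elongation replicate 1 or Col-0 elongation replicate 2, with adjusted p otherwise up to 0.111 and 0.128. Without Col-0 meristematic replicate 1 AT3G22240 was not called (adjusted p = 0.0582), nor was AT3G07070, which also lost its call without upb1-1 meristematic replicate 1 (adjusted p up to 0.0597).

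Among the genes with a lower interaction, AT5G35940 had opposite zone differences. Its signals were 179.9 and 94.7 in upb1-1 elongation arrays and 591 and 730.4 in upb1-1 meristematic arrays, against 1538 and 1122 in Col-0 elongation arrays and 379 and 576 in Col-0 meristematic arrays. The upb1-1 arrays lay below the Col-0 arrays in the elongation zone and above them in the meristematic zone. It was lower in the elongation zone of upb1-1 by a zone difference of -2.19 and higher in that of Col-0 by 1.46, with an interaction of -3.65 (SE 0.40, adjusted p = 0.00023). JAL33 (AT3G16450), a jacalin-related lectin, shared this arrangement, with 291 and 134 in upb1-1 elongation arrays and 564 and 631 in upb1-1 meristematic arrays, against 1146 and 1016 in Col-0 elongation arrays and 493 and 622 in Col-0 meristematic arrays. Its meristematic arrays overlapped between genotypes, and its interaction was -2.46 (SE 0.36, adjusted p = 0.00281). Both genes kept their calls without any single array.

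AT3G10020 was higher in the elongation zone of Col-0 and not called between the zones of upb1-1. Its signals were 82.7 and 41.9 in upb1-1 elongation arrays and 89.0 and 74.3 in upb1-1 meristematic arrays, against 1055 and 417 in Col-0 elongation arrays and 70.4 and 95.5 in Col-0 meristematic arrays. The 2 Col-0 elongation arrays stood above the other 6 but differed from each other, and the interaction was -3.16 (SE 0.49, adjusted p = 0.00428). AT5G62330 and AT5G62340, with adjacent locus numbers, were lower in the elongation zone of upb1-1 and not called in Col-0. AT5G62340 had 1316 and 335 in upb1-1 elongation arrays and 6415 and 5712 in upb1-1 meristematic arrays, against 5496 and 3376 in Col-0 elongation arrays and 5149 and 6313 in Col-0 meristematic arrays. AT5G62330 had 472 and 161 in upb1-1 elongation arrays and 1241 and 1109.8 in upb1-1 meristematic arrays, against 1373 and 1253 in Col-0 elongation arrays and 536 and 1053 in Col-0 meristematic arrays. In both genes upb1-1 elongation replicate 2 was the dimmest array, and the interaction was -2.75 for AT5G62340 (adjusted p = 0.0261) and -2.81 for AT5G62330 (adjusted p = 0.0114). AT5G62330 lost its call without upb1-1 meristematic replicate 1 or replicate 1 of either Col-0 zone (adjusted p up to 0.0856). AT5G62340 kept its call without either upb1-1 elongation array or Col-0 elongation replicate 2 (adjusted p otherwise up to 0.147), and its interaction was -1.78 without upb1-1 elongation replicate 2.

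MGL, IVD and ASPGA1 had a lower interaction and were called higher in the elongation zone of Col-0. They are named after their values were seen and do not come from a list. MGL (AT1G64660), methionine gamma-lyase, had signals of 238 and 196 in upb1-1 elongation arrays and 85.0 and 109 in upb1-1 meristematic arrays, against 919.8 and 798 in Col-0 elongation arrays and 103 and 108 in Col-0 meristematic arrays. Its zone difference was 1.04 in upb1-1 and 2.85 in Col-0, both called, and its interaction was -1.80 (SE 0.26, adjusted p = 0.00255). IVD (AT3G45300), isovaleryl-CoA dehydrogenase of leucine breakdown, had 335 and 198 in upb1-1 elongation arrays and 195 and 197 in upb1-1 meristematic arrays, against 711 and 559 in Col-0 elongation arrays and 154 and 202 in Col-0 meristematic arrays, with an interaction of -1.38 (adjusted p = 0.0358). ASPGA1 (AT5G08100), an asparaginase, had 899.6 and 592 in upb1-1 elongation arrays and 785 and 728 in upb1-1 meristematic arrays, against 1620.2 and 1541 in Col-0 elongation arrays and 704 and 656 in Col-0 meristematic arrays, with an interaction of -1.25 (adjusted p = 0.0368). The Col-0 elongation arrays were the brightest of the 8 in all 3 genes. MGL kept its call without any single array, whereas IVD and ASPGA1 kept theirs only without upb1-1 elongation replicate 1 or Col-0 elongation replicate 2, with adjusted p otherwise up to 0.191 and 0.166.

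In 6 of the 359 called probe sets the difference between genotypes was larger in the meristematic zone than in the elongation zone. AT3G55920 had the lowest interaction of all tested probe sets on the log2(signal + 16) scale. Its signals were 856 and 758 in upb1-1 elongation arrays and 505 and 471 in upb1-1 meristematic arrays, against 818 and 941 in Col-0 elongation arrays and 5.69 and 2.86 in Col-0 meristematic arrays. The 2 Col-0 meristematic arrays stood far below the other 6. The zone difference was 0.71 in upb1-1 and 5.46 in Col-0, and the interaction was -4.76 (SE 0.26, adjusted p = 1.84e-07). The upb1-1 minus Col-0 difference was 4.64 in the meristematic zone, which was called, and -0.12 in the elongation zone, which was not. The Col-0 meristematic signals lay below the added 16, and the interaction was -6.71 with 1 added and -3.13 with 64 added. It kept its call with both constants and without any single array.

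QQS (AT3G30720), a regulator of starch content found only in Arabidopsis, showed the reverse in the meristematic zone. It had signals of 46.6 and 49.3 in upb1-1 elongation arrays and 24.2 and 40.3 in upb1-1 meristematic arrays, against 36.2 and 29.0 in Col-0 elongation arrays and 139.7 and 175 in Col-0 meristematic arrays. AT5G09570 had 36.4 and 41.5 in upb1-1 elongation arrays and 32.3 and 26.3 in upb1-1 meristematic arrays, against 43.6 and 26.7 in Col-0 elongation arrays and 157 and 158 in Col-0 meristematic arrays. In both genes the Col-0 meristematic arrays stood above the other 6. The interaction was 2.26 for QQS (SE 0.37, adjusted p = 0.00599) and 2.06 for AT5G09570 (SE 0.36, adjusted p = 0.00892). Without upb1-1 meristematic replicate 1 QQS was just outside the threshold (adjusted p = 0.0555), and AT5G09570 was outside it without upb1-1 meristematic replicate 2 or Col-0 meristematic replicate 1 (adjusted p up to 0.0633). These 2 genes were named after their values were seen. The other 3 probe sets are unnamed here and had interactions of 1.91, 1.97 and -2.34.

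Genes of the cell cycle gave no called interaction. All 5 tested G2/M genes lay below 0 with a median of -0.53. All 6 tested members of the core histone list lay below 0 with a median of -0.65, against -0.02 over all tested probe sets. That list also holds HON4 (AT3G18035), a linker histone-type gene with an interaction of -0.60, and the core histone counts, median and sum given here include it. AUR2 (AT2G25880), an Aurora kinase of mitosis, had signals of 36.7 and 32.2 in upb1-1 elongation arrays and 269 and 272 in upb1-1 meristematic arrays, against 102 and 59.7 in Col-0 elongation arrays and 322 and 261 in Col-0 meristematic arrays. HTB2 (AT5G22880), a histone H2B, had 151 and 65.9 in upb1-1 elongation arrays and 698 and 702 in upb1-1 meristematic arrays, against 268 and 188 in Col-0 elongation arrays and 659 and 699 in Col-0 meristematic arrays. Both were lower in the elongation zone of each genotype, and upb1-1 lay below Col-0 there without overlap. The interaction was -0.81 for AUR2 (adjusted p = 0.246), -0.78 for AUR1 (AT4G32830, adjusted p = 0.2), -1.09 for HTB2 (adjusted p = 0.156) and -0.80 for HTB11 (AT3G46030, adjusted p = 0.115). The core histone sum was 6144 and 4217 in upb1-1 elongation arrays and 8582 and 9019.6 in upb1-1 meristematic arrays, against 9585 and 8041 in Col-0 elongation arrays and 9589 and 9102 in Col-0 meristematic arrays. Without upb1-1 elongation replicate 1, 1 G2/M gene and 3 core histones were called lower, beside 8.53% of all tested probe sets in that fit. The 3 tested S phase genes had a median of -0.08 and none was called. At an unadjusted p below 0.05 in limma, 2 G2/M genes, 2 core histones and 0 S phase genes passed, beside 19.2% of all tested probe sets.

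**Figure D5:**
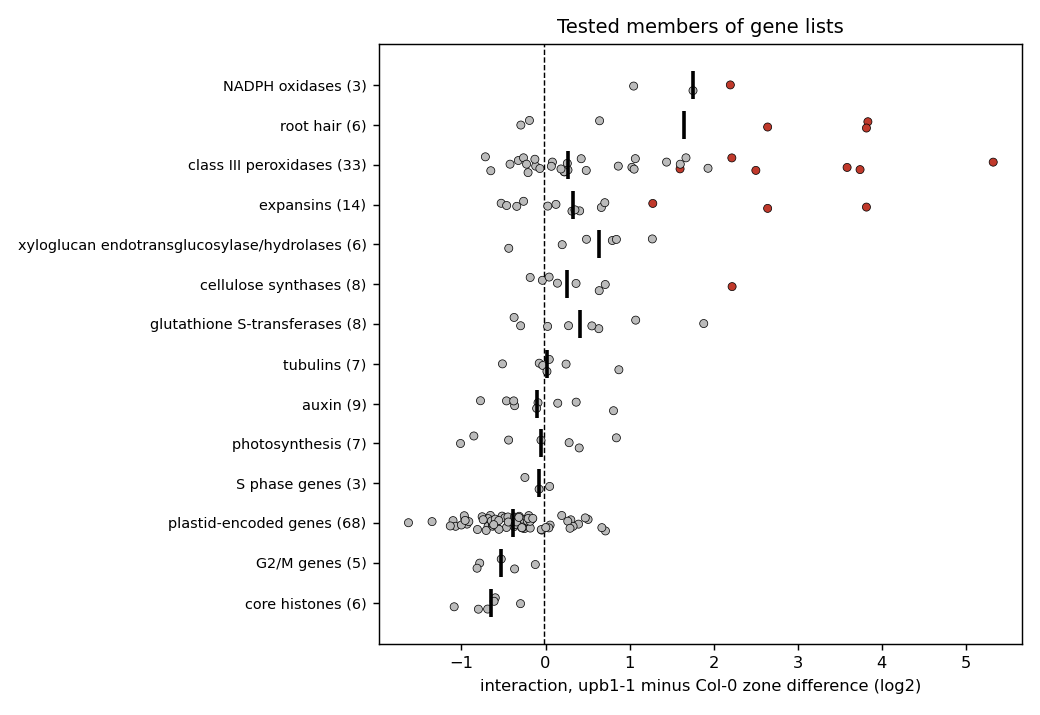
The interaction (log2) of each tested member of 14 gene lists, with the number tested in brackets; red points were called higher, grey points were not called, black bars are list medians and the dashed line is the median of all tested probe sets. Called members occur in the NADPH oxidase, root hair, class III peroxidase, expansin and cellulose synthase lists, and EXPA7 and EXPA18 appear in both the root hair and the expansin list.

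Markers of other tissues that a cut piece could hold were not called. The stem cell niche list had 4 tested genes with a median of -0.13, cortex and epidermis 3 with 0.18, and photosynthesis 7 with -0.05. The endodermis, xylem, phloem and pericycle lists had 1 tested gene each and none called; GSO1 (AT4G20140), a receptor kinase of the Casparian strip barrier, had an interaction of 1.04 (adjusted p = 0.0922). Among 9 tested auxin genes, 2 ethylene genes and 4 genes of gibberellin and brassinosteroid, 0 were called, and their medians lay between -0.11 and 0.13. The 7 tested tubulins had a median of 0.02 and none called. Plastid-encoded transcripts were dimmer in the elongation zone of both genotypes, with sums of 15442 and 15368 in upb1-1 elongation arrays and 43127 and 38227 in upb1-1 meristematic arrays, against 20022 and 16218 in Col-0 elongation arrays and 36379 and 42205 in Col-0 meristematic arrays. Their 68 tested members had a median interaction of -0.39 with 13 above 0, and none was called. Up to 5 were called lower when 1 array was left out, the most without Col-0 elongation replicate 2, where 2.34% of all tested probe sets were called lower. The single tested gene of the heat shock list, AT5G48570, had signals of 281 and 271 in upb1-1 elongation arrays and 129 and 152 in upb1-1 meristematic arrays, against 2394 and 339 in Col-0 elongation arrays and 110.0 and 129.6 in Col-0 meristematic arrays. Its first Col-0 elongation array stood apart from its replicate, and the interaction of -1.86 was not called (adjusted p = 0.199). The root cap, cytokinin, nutrient, extensin, arabinogalactan protein and aquaporin lists had no tested member. The lists of ribosomal proteins (PGY1 and AT1G77750), hypoxia (PDC2 and STZ), and wounding and touch (STZ and WRKY53) had 2 tested genes each and none called. So few genes do not stand for all genes of these kinds, and genes known here by locus alone may belong to them. At an unadjusted p below 0.05 in limma, 13 plastid-encoded genes, 2 tubulins, 2 ribosomal protein genes, 1 auxin gene, 1 hypoxia gene, 1 photosynthesis gene, GSO1 and AT5G48570 passed, and no gene of the other lists here, beside 19.2% of all tested probe sets. None had an adjusted p below 0.05, and a p above that threshold does not show that the zone difference was the same in both genotypes.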

How the data were processed

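Probe set signals of 12 ATH1 arrays were used as deposited. They are linear intensity values that the authors computed with MAS5, per the submitters' processing notes, with no version given; RNA was amplified in a 2-cycle procedure before hybridisation, per the labels' protocols. The deposited intensities had the same 2% trimmed mean on every array (250.025 to 250.03), so they had been scaled. No detection call was used. Probe sets of the 64 controls were left out of 22810.

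Here log2(signal + 16) was modelled in limma 3.58.1 (R 4.3.3) with 6 group means over all 12 arrays, then eBayes with a trend of variance on mean signal (prior 8.75 and residual 6 degrees of freedom, two-sided). Probe sets at or above the 40th percentile of an array on 2 or more of the arrays were kept, which left 15834 to test. The Benjamini-Hochberg adjustment ran over all of these in each comparison, and every adjusted p of a gene is limma's. The fit was tested on simulated data with normal noise. It recovered 71 of 100 planted interactions of 2 log2 units and 97 of 100 of 3 log2 units, with 11 false calls. A true interaction of 2 log2 units can therefore be missed.

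The platform annotation gives 1 gene for 8906 (56.2%) of the tested probe sets, and the others have several or are unnamed here. Symbols come from a TAIR10.1 gene table used for names only. PER and RBOH names were assigned by locus from general knowledge, since the table gives their loci alone. Lists use the brightest probe set of a gene by its mean over the 12 arrays. Genes named are UPB1, PER39, PER40 and PER57, up to 15 with the highest and 15 with the lowest interaction among called probe sets with 1 gene, a bright group and 1 sign of the interaction over all 16 choices of 1 array from each group, and up to 4 members with the smallest p of each of the 37 lists. PER66, PER72, PER9 and the genes marked in the text fall outside this rule. The members, lists and alternatives were chosen with earlier results of these data known.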

Additional observations from a re-analysis of the deposited data

Results flagged for a closer look

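With 2 arrays in a group, no search for outlying arrays within a group was possible. The results below are those where the zone difference in upb1-1 differed from that in Col-0 by the test of the interaction itself, given as values. This held for 359 probe sets, and for 50 of the genes named.

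Among peroxidases and the oxidase, the interaction was 5.33 for PER35, 3.74 for PER7, 3.59 for PER44, 2.50 for PER72, 2.22 for PER69, 1.60 for PER66 and 2.20 for RBOHG. Among root hair and wall genes it was 3.84 for GH9C1, 3.82 for EXPA18, 2.64 for EXPA7, 2.33 for PMEPCRF, 2.22 for CSLC12, 1.87 for TBL38, 1.79 for TBL41 and 1.28 for EXLA1. Other genes with a symbol or synonym had 3.36 for UGT84A1, 2.41 for TET12, 2.40 for AT3G13610, 2.26 for QQS, 1.91 for UGT72E3, 1.80 for tny and 1.55 for scpl48. Genes known by locus had 3.93 for AT5G04960, 3.56 for AT3G12540, 3.13 for AT3G07070, 3.06 for AT3G54040, 3.00 for AT5G49870, 2.99 for AT1G19900, 2.75 for AT2G45750, 2.69 for AT3G22240 and 2.06 for AT5G09570.

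Below 0, the interaction was -4.76 for AT3G55920, -3.65 for AT5G35940, -3.16 for AT3G10020, -2.81 for AT5G62330, -2.75 for AT5G62340 and -2.46 for JAL33. It was -2.35 for AT2G43610, -2.32 for AT3G23880, -2.27 for AT2G41650, -2.24 for AT5G24490, -2.22 for AT3G07350, -2.19 for AT5G48110, -2.08 for AT3G13175, -2.02 for AT4G23590 and -2.01 for AT1G07830. It was -1.80 for MGL, -1.38 for IVD, -1.30 for TGH, an RNA-binding protein gene of transcript processing, and -1.25 for ASPGA1. TGH was named after its value was seen, and kept its call only without upb1-1 elongation replicate 1 (adjusted p otherwise up to 0.178). Without upb1-1 elongation replicate 2 the interaction was -1.39 for AT2G43610, -1.40 for AT3G13175 and -1.33 for AT1G07830, and without replicate 1 it was -3.31, -2.76 and -2.69. The call was kept in 3 of the 8 fits without 1 array for AT2G43610, 2 for AT3G13175 and 2 for AT1G07830 (adjusted p up to 0.181). It was kept in 3 for AT3G23880, in 4 for AT3G07350, AT5G48110 and AT4G23590, and in 7 for AT2G41650 and AT5G24490. AT5G24490 was lower in the elongation zone of upb1-1 (-1.35) and higher in that of Col-0 (0.89), and so was AT5G48110 (-0.92 in upb1-1 and 1.27 in Col-0).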

How the results depend on the processing

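The count of called interactions depended on the processing, and none of the 50 named called genes changed direction under any of the 18 alternatives. The direction was not checked for every named gene that was not called. Against 359 calls (235 higher, 124 lower), adding 1 to the signal gave 118 (71 higher, 47 lower) and adding 64 gave 557 (377 higher, 180 lower). Testing all probe sets without a filter gave 148 (108 higher, 40 lower), and no trend of the variance gave 215 (170 higher, 45 lower). The 8 arrays alone gave 255 (191 higher, 64 lower) and array weights 587 (331 higher, 256 lower). Median centring gave 395 (207 higher, 188 lower), so the share called higher was 52.4% against 65.5%, and quantile normalization gave 333. Leaving out 1 array gave between 59 and 2403 calls, between 48 and 1052 higher and between 11 and 1351 lower. The zone difference was then called at between 6255 and 8398 probe sets in upb1-1 and between 4015 and 7072 in Col-0. Of the 50 named called genes, 16 kept the call under all 18 alternatives, namely PER35, PER44, PER7, PER69, EXPA18, GH9C1, tny, AT5G04960, AT3G12540, AT3G54040, AT1G19900, AT3G55920, AT5G35940, AT3G10020, JAL33 and MGL, and the others lost it under at least 1. The size moved by over 1.5 times under some alternative in 15 of the 50. With 64 added it was 1.33 for RBOHG, 1.31 for CSLC12, 1.94 for UGT84A1, 1.45 for AT3G13610, 1.42 for QQS, 1.31 for TET12, 2.03 for AT3G54040, 1.84 for AT5G49870, -1.34 for AT3G13175 and 1.31 for AT5G09570. In small lists, a pseudocount of 1 left 0 called NADPH oxidases, pectin methylesterases, cellulose synthases and iron deficiency genes and 1 called expansin.

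The labels give the groups the same replicate numbers. The deviations of same-numbered arrays correlated between -0.15 and 0.28 over pairs of groups. The highest value, 0.28, was between the elongation zones of upb1-1 and Col-0, and the next, 0.11, between their meristematic zones. The main fit did not pair the arrays, and a replicate effect shared by the genotypes within a zone was not tested. With a replicate block the count was 442 (284 higher, 158 lower), with 355 of the 359 calls kept, and with a genotype by replicate block it was 443, with 320 kept. PER9 (adjusted p = 0.0415 and 0.0297) and GSTU28 (0.0488 and 0.0251) were called with both blocks and RBOHE (0.0436) with the second, and EXLA1 (0.0668) and TGH (0.0561) were not called with the second.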

Other observations

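The 4 arrays of 35S::UPB1-3YFP #2 in upb1-1 were not part of the contrast, and their zone difference can be set beside it. It was above 0 at 155 of the 235 probe sets with a higher interaction (median 0.37) and below 0 at 82 of the 124 with a lower one (median -0.38), while it was above 0 at 7165 of all 15834 tested probe sets (median -0.11). The log2 3' to 5' ratio of control transcripts was 4.21 and 4.12 in the meristematic arrays of this line and 3.87 and 4.08 in its elongation arrays. In the meristematic arrays of upb1-1 and Col-0 it lay between 1.98 and 2.27, so the zones of this line are not alike to theirs in this measure. The part of this in the zone difference was not tested. The UPB1 probe set had 53.6 and 35.3 in the elongation and 28.1 and 55.2 in the meristematic arrays of that line, below every Col-0 array. Whether the probe set reads the transgene was not tested.

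PER35, at 2.18 and 6.60 in elongation and 2.89 and 3.30 in meristematic arrays of the 35S::UPB1-3YFP #2 line, was dim in both zones there. AT3G55920 had 699.7 and 698 in elongation and 279.7 and 216 in meristematic arrays of that line, so only the Col-0 meristematic arrays were dim among the 12.

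The unnamed probe sets held the highest interaction, 5.60, with mean signals of 694 in the upb1-1 elongation zone and 201 in the upb1-1 meristematic zone, against 3.55 in the Col-0 elongation zone and 277 in the Col-0 meristematic zone. The lowest interaction of an unnamed probe set was -3.99, with means of 59.2 in the upb1-1 elongation zone and 92.1 in the upb1-1 meristematic zone, against 1337 in the Col-0 elongation zone and 118 in the Col-0 meristematic zone.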
